A study of Mus musculus with 12 samples.

Results

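The enzymes and transporters of glycolysis, lactate export and the pentose phosphate pathway were followed in splenic B cells carrying floxed Ebf1. A fixed list of 36 genes was used, and a gene was read from the probes whose gene name in the scanner files was its symbol or older symbol (Pkm as Pkm2, Tpi1 as Tpi). The brightest probe that passed a filter on dim signals stood for the gene. Under this rule 34 of the 36 genes had a probe (63 probes of 41174 in all), and all 34 were among the 17134 genes tested. Gapdh and Rpia had none. The brightest probes were well above background on all 12 arrays for 33 of the 34 genes. The exception was Hk3, which was above background on 2 of the 3 LPS-treated +/fl arrays. No spot of these probes was saturated.

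Ebf1 is a transcription factor that establishes and maintains the B lineage. The 4 groups of 3 arrays were LPS-treated Ebf1fl/flRERTCre cells, LPS-treated Ebf1+/flRERTCre cells, resting Ebf1fl/flRERTCre cells and resting Ebf1+/flRERTCre cells, called LPS fl/fl, LPS +/fl, resting fl/fl and resting +/fl here. All mice were C57BL/6, all carried RERTCre, a Cre fused to the oestrogen receptor, all had at least 1 floxed allele, and all were given 3 mg of tamoxifen citrate on 4 days and analysed on day 10. The control is therefore a heterozygote treated in the same way and not a wild type. The labels limit neither the Cre to B cells nor the deletion to the sorted population, name a gate for B220+AA4.1- cells and a narrower gate for their CD21lo fraction without saying which array had which, and give no age, LPS dose or length of culture. Whether the 3 arrays of a group came from separate mice was not stated beyond the word triplicates, so the p-values rest on a spread that may be technical.

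Glycolysis splits glucose into pyruvate and yields ATP; when lactate dehydrogenase reduces the pyruvate, the lactate leaves the cell through monocarboxylate transporters. The pentose phosphate pathway branches off after the hexokinase step and supplies NADPH and ribose phosphate, which dividing cells use for lipids and nucleotides. Several steps are catalysed by isozymes from different genes, and B cells stimulated with LPS, a bacterial ligand of a Toll-like receptor, are known to grow, divide and take up more glucose.

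Each value is a log2 signal set against the 75th percentile of its array, so 0 is the 75th percentile and a step of 1 is a 2-fold change in signal; levels are compared between arrays for 1 probe and never between probes. The LPS fl/fl array 2 stood apart, with 83.2% of spots well above background, where the remaining arrays had 54.4% to 61.4%. All 10 B cell markers examined were well above background on every array. The brighter Ebf1 probe, near the 3′ end of the transcript, read 1.81, 1.68 and 1.71 in resting fl/fl cells, against 0.75, 1.40 and 1.18 in resting +/fl cells (difference 0.62, adjusted p = 0.0382). A dimmer Ebf1 probe went the other way (−1.90, adjusted p = 0.0432). The labels do not name the deleted exons, so neither probe checks the deletion, and the genotypes below are those of the labels. In mixed RNA of sorted cells, fewer cells of a kind and less RNA per cell cannot be told apart.

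Promoter sequences are shown for Hk2, Ldha and Pgk1, 3 members that rose together after LPS, since the regulators of these genes are known to bind short motifs near the start site. Each run holds the 250 bases before a RefSeq start on GRCm38.p6, on the strand of the gene. Capitals mark CACGTG, the E-box bound by Myc and its relatives, and ACGTG outside it (CACGT on this strand), the core recognised by hypoxia-inducible factors. Ldha had 2 RefSeq starts, and the run shown was chosen by the number of these motifs it holds.
Hk2 promoter, chr6:82774455-82774704, minus strand: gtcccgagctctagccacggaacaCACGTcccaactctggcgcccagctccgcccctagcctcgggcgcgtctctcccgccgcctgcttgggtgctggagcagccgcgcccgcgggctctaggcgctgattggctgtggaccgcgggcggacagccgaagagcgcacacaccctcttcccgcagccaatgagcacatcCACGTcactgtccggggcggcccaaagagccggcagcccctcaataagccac
Ldha promoter, chr7:46845554-46845803, plus strand: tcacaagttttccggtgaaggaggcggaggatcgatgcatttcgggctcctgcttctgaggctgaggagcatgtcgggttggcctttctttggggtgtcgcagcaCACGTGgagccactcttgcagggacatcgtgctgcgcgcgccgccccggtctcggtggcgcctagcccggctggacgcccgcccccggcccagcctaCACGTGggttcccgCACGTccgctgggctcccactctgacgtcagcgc
Pgk1 promoter, chrX:106186850-106187099, plus strand: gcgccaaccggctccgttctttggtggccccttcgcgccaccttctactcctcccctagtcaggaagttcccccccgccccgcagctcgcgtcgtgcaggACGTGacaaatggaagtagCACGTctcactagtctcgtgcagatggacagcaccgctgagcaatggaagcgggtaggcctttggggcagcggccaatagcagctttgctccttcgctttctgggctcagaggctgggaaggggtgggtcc

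RefSeq promoters of 300 bases were matched for 35 of the 36 genes. On either strand, ACGTG outside CACGTG was present in 16 of these 35 (45.7%) and in 15.3% of 27025 genes with a promoter in the table. The members and all genes were not matched for base composition, number of start sites or expression, and enrichment was not tested. CACGTG was present in 4 of 35, Pfkm, Ldha, Slc16a1 and Pfkfb3 (11.4%, against 8.09% of all genes). Neither motif was confined to members that rose after LPS or present in all of those. Hk1, Aldoc and Pfkm fell in both genotypes and had ACGTG outside CACGTG, Pfkm with CACGTG as well. Tpi1, Eno2, Tkt and Pgd rose in both genotypes and had neither motif. A relation of the motifs to the LPS response was not tested.

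LPS changed most of the members. In fl/fl cells 17 members rose, 9 fell and 8 of 34 did not pass the test (limma, Benjamini-Hochberg adjusted over all genes, threshold 0.05), so 76.5% were called where 55.6% of all genes were. In +/fl cells 18 rose, 11 fell and 5 did not pass, or 85.3% against 57.7% of all genes. The rising share stood beside 29.9% of all genes in fl/fl cells and 30.4% in +/fl cells. The falling share stood beside 25.7% in fl/fl cells and 27.4% in +/fl cells. The median response of the members was 0.36 in fl/fl cells, where that of all genes was 0.06, and 0.46 in +/fl cells, where that of all genes was −0.03. The 2 comparisons share no arrays. The split of the fl/fl members depended on the scaling: with arrays scaled to their median, 9 members rose and 10 fell in fl/fl cells, where the median of all genes was then −0.22, and 17 rose and 8 fell in +/fl cells.

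Cell type markers moved with LPS as well. Of 10 B cell markers 7 fell in each genotype (median −2.32 in fl/fl, −1.48 in +/fl). Their summed level was 8.35 to 8.57 on LPS fl/fl arrays, against 9.89 to 10.08 on resting fl/fl arrays, and 8.58 to 8.65 on LPS +/fl arrays, against 9.82 to 10.21 on resting +/fl arrays. NK cell markers fell in 6 of 7 cases in fl/fl cells and 7 of 7 in +/fl cells, and platelet markers in 5 of 8 in fl/fl cells and 6 of 8 in +/fl cells. Of 17 myeloid markers 4 rose and 6 fell in fl/fl cells, and 12 fell in +/fl cells. Of 11 T cell markers 1 rose and 2 fell in fl/fl cells, and 5 fell in +/fl cells. The part of these shifts in the members' LPS responses was not tested.

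**Figure D1:**
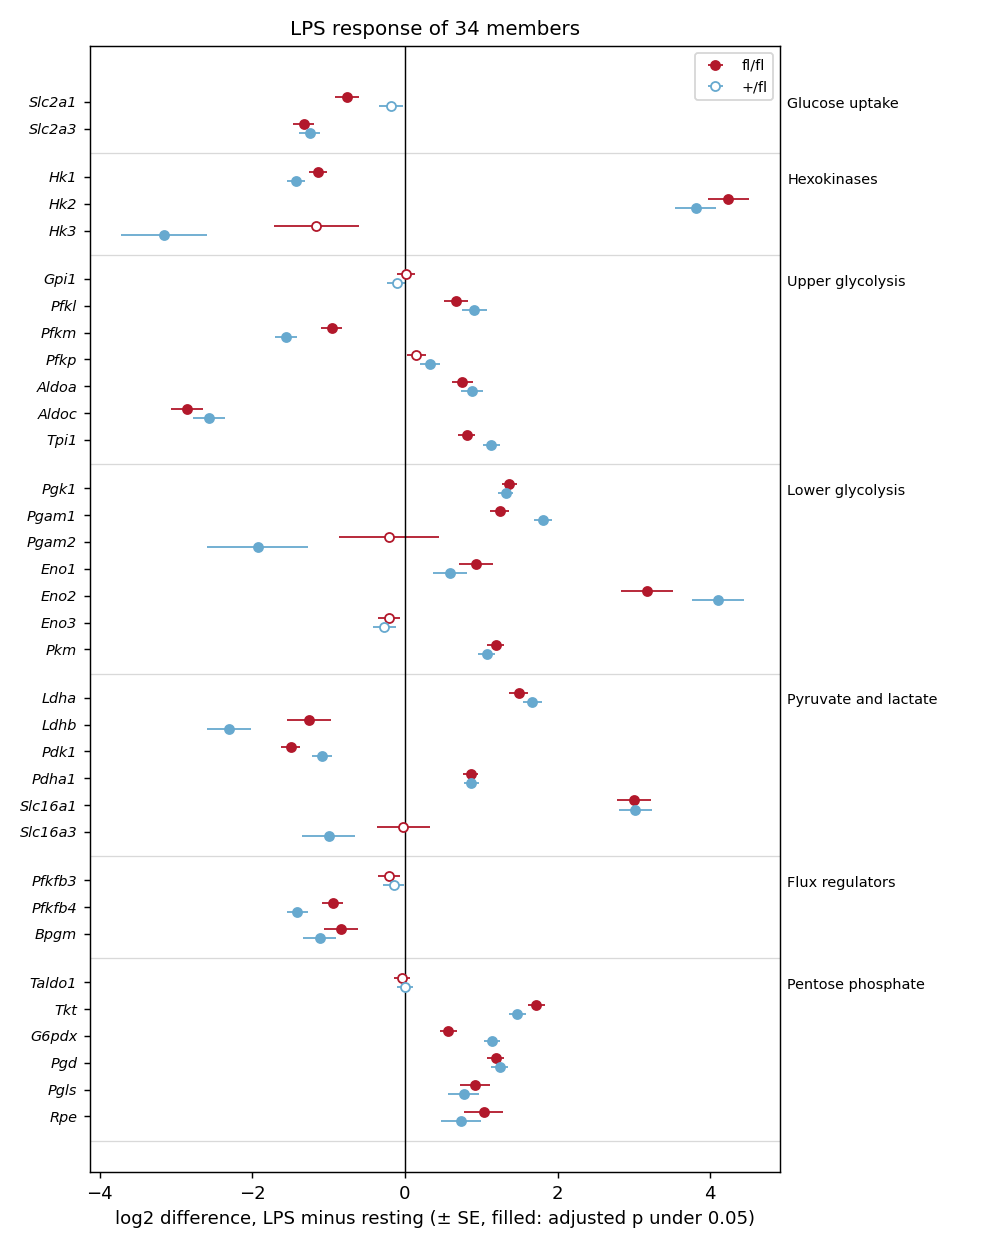
LPS response of the 34 members by role. The x axis is the log2 difference, LPS minus resting; red points are fl/fl cells and blue points +/fl cells, bars are standard errors of the fit, and filled points passed the adjusted p of 0.05. Hk2, Eno2 and Slc16a1 lie furthest to the right in both genotypes, and Aldoc lies at −2.86 in fl/fl and −2.57 in +/fl cells.

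Glucose enters through the transporters Slc2a1 (GLUT1) and Slc2a3 (GLUT3). Slc2a3 read 1.63, 1.26 and 1.42 in LPS fl/fl cells, against 2.80, 2.89 and 2.60 in resting fl/fl cells. In +/fl cells it read 1.15, 1.5 and 1.44 after LPS, against 2.55, 2.78 and 2.51 at rest. No LPS array reached any resting array, and the gene fell in both genotypes (−1.33 ± 0.14 in fl/fl, adjusted p = 2.68e-05; −1.25 ± 0.14 in +/fl, adjusted p = 3.72e-05; ± gives the standard error of the fit here and below). The remaining Slc2a3 probes, above background on 3 and 4 of 12 arrays and on none of the LPS +/fl arrays, were too dim to read a response from. Slc2a1 fell in fl/fl cells (−0.76 ± 0.16, adjusted p = 0.0024) and had a response of −0.18 ± 0.16 in +/fl cells (adjusted p = 0.35). The difference between these 2 responses did not pass the test (−0.57, adjusted p = 0.205). Neither uptake gene rose after LPS in either genotype.

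Hexokinases trap glucose by phosphorylating it. Hk2, the inducible form, had the largest response of the hexokinases. It read 3.58, 4.01 and 3.41 in LPS fl/fl cells, against −0.23, −0.75 and −0.74 in resting fl/fl cells. In +/fl cells it read 4.05, 4.18 and 3.93 after LPS, against 0.62, −0.37 and 0.50 at rest. The groups were far apart in both genotypes: Hk2 rose 18.9-fold in fl/fl cells (4.24 ± 0.27 on the log2 scale, adjusted p = 8.07e-07) and 14.0-fold in +/fl cells (3.81 ± 0.27, adjusted p = 1.4e-06). Hk1, the constitutive form, fell in fl/fl cells (−1.14, adjusted p = 1.95e-05) and in +/fl cells (−1.43, adjusted p = 3.62e-06). Averaged over its probes, 1 of which was above background on only 5 arrays, the Hk1 response in fl/fl cells was −0.48 (adjusted p = 0.188). Further Hk1 probes above background on all 12 arrays fell less in fl/fl cells than the one used. Adjusted over all probes, they gave −0.76 (adjusted p = 0.0235), −0.41 (adjusted p = 0.368) and −0.29 (adjusted p = 0.502). In +/fl cells the same probes gave −1.98, −1.77 and −1.86. Hk3, a form typical of myeloid cells, fell by 3.16 in +/fl cells (adjusted p = 0.000742) and had a response of −1.16 ± 0.56 in fl/fl cells (adjusted p = 0.104). Without LPS fl/fl array 2, the array with most spots above background, that response was −1.67 (adjusted p = 0.025). The Hk3 readings of resting +/fl arrays 1 to 3 were −1.10, −2.38 and −2.11. For 17 monocyte, macrophage and neutrophil markers, each marker was set against its own mean over all arrays and the median over markers was taken. That median was 2.22, 0.25 and 1.74 on the same arrays, and it ranged over 0.06 to 0.40 on the resting fl/fl arrays. The part of such cells in the Hk3 values was not tested.

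In the upper steps, from glucose 6-phosphate to the triose phosphates, 3 of 7 genes rose and 2 fell in fl/fl cells, and 4 rose and 2 fell in +/fl cells. Aldolase C, the brain type, had the largest response. Aldoc read −2.37, −2.03 and −2.52 in LPS fl/fl cells, against 0.51, 0.42 and 0.73 in resting fl/fl cells. The +/fl readings were −1.61, −2.04 and −1.53 after LPS, against 1.18, 0.89 and 0.46 at rest. It fell in fl/fl cells (−2.86 ± 0.21, adjusted p = 2.19e-06) and in +/fl cells (−2.57 ± 0.21, adjusted p = 4e-06), and the groups did not overlap. Aldoa, the ubiquitous and muscle aldolase, rose in fl/fl cells by 0.75 (adjusted p = 0.000978) and in +/fl cells by 0.88 (adjusted p = 0.000326). Among the phosphofructokinases, which catalyse the committed step, the liver form Pfkl rose (0.67 in fl/fl, 0.91 in +/fl) and the muscle form Pfkm fell (−0.96 in fl/fl, −1.56 in +/fl). The platelet form Pfkp had a response of 0.15 in fl/fl cells (adjusted p = 0.355) and was at the limit of the test in +/fl cells (0.33, adjusted p = 0.0492; 0.0501 when only the 6 +/fl arrays were fitted). Gpi1, the phosphoglucose isomerase, passed in neither genotype (0.01 in fl/fl, −0.11 in +/fl), although its probe was printed on 10 spots. Tpi1, the triose phosphate isomerase, rose in fl/fl cells by 0.81 (adjusted p = 0.000113) and in +/fl cells by 1.13 (adjusted p = 9.82e-06).

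Of the 7 genes measured in the lower steps, which yield ATP, 5 rose in each genotype, and 1 fell in +/fl cells. Eno2, the neuronal enolase, had the largest response of these genes. It read −0.37, −0.48 and −0.52 in LPS fl/fl cells, against −4.12, −3.90 and −2.86 in resting fl/fl cells. The +/fl readings were −0.04, −0.69 and −0.71 after LPS, against −4.64, −4.07 and −5.02 at rest. Eno2 rose 9.03-fold in fl/fl cells (3.17 ± 0.34, adjusted p = 2.84e-05) and 17.1-fold in +/fl cells (4.10 ± 0.34, adjusted p = 4.43e-06). Eno1, the ubiquitous enolase, rose in fl/fl cells by 0.93 (adjusted p = 0.00422) and in +/fl cells by 0.59 (adjusted p = 0.039). The +/fl call of Eno1 was lost when any 1 of 8 arrays was left out (adjusted p up to 0.101). Those arrays were resting fl/fl 3, LPS fl/fl 1 and all 6 +/fl arrays. Eno3, the muscle enolase, passed in neither genotype (−0.21 in fl/fl, −0.27 in +/fl).

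Of the mutases, which move the phosphate of phosphoglycerate, the general form Pgam1 rose in fl/fl cells by 1.24 (adjusted p = 1.09e-05) and in +/fl cells by 1.81 (adjusted p = 7.94e-07). The muscle form Pgam2 fell in +/fl cells (−1.93 ± 0.66, adjusted p = 0.0294), and its response was −0.21 in fl/fl cells, where the resting arrays spread over −1.85, −3.80 and −1.02. The Pgam2 call was lost without resting +/fl array 1 or 3 or any LPS +/fl array (adjusted p up to 0.0935). Pgk1, the phosphoglycerate kinase that makes the first ATP of the pathway, rose in fl/fl cells by 1.37 (adjusted p = 1.79e-06) and in +/fl cells by 1.32 (adjusted p = 2.09e-06). Pkm, the pyruvate kinase, rose in fl/fl cells by 1.19 (adjusted p = 1.21e-05) and in +/fl cells by 1.07 (adjusted p = 2.4e-05).

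Gapdh, the dehydrogenase between Tpi1 and Pgk1, could be read only outside the rule. A probe at chr6:125188003-125188172 on mm7, named for another transcript, lists 4 RefSeq accessions, Gapdh's among them, and is shown because it may be read by near-identical copies of the gene.
Gapdh-like probe: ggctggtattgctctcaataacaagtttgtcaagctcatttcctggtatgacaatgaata
At this probe the LPS response was 1.31 in fl/fl cells (adjusted p = 3.83e-05) and 1.15 in +/fl cells (adjusted p = 8.82e-05), adjusted over all probes tested. Its genotype difference was −0.45 after LPS (adjusted p = 0.15) and −0.61 at rest (adjusted p = 0.0374). The values are uncertain for Gapdh itself and are counted nowhere else.

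At the pyruvate and lactate end, 3 of 6 genes rose and 2 fell in fl/fl cells, and 3 rose and 3 fell in +/fl cells. Slc16a1 (MCT1), a transporter of lactate and pyruvate, read 3.03, 3.24 and 2.87 in LPS fl/fl cells, against 0.03, 0.08 and 0.04 in resting fl/fl cells. In +/fl cells it read 3.6, 3.84 and 3.38 after LPS, against 0.86, 0.01 and 0.88 at rest. It rose 7.99-fold in fl/fl cells (3.00 ± 0.22, adjusted p = 2.25e-06) and 8.13-fold in +/fl cells (3.02 ± 0.22, adjusted p = 1.95e-06), with no overlap. Slc16a3 (MCT4), the exporter typical of glycolytic muscle, had a response of −0.02 in fl/fl cells (adjusted p = 0.962) and fell in +/fl cells (−1 ± 0.35, adjusted p = 0.0328) though its groups overlapped. Without resting +/fl arrays 1 and 3, those with high myeloid markers, the +/fl response of Slc16a3 was −0.26 (adjusted p = 0.621). It was also past 0.05 without either of these alone, or without LPS +/fl array 1 or 2 (adjusted p up to 0.12).

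Ldha, the subunit that favours lactate, rose in fl/fl cells by 1.49 ± 0.12 (adjusted p = 3.17e-06) and in +/fl cells by 1.67 ± 0.12 (adjusted p = 1.32e-06). Ldhb, the subunit typical of heart, fell in fl/fl cells (−1.26, adjusted p = 0.0039) and in +/fl cells (−2.31, adjusted p = 6.86e-05). Pdha1, a subunit of pyruvate dehydrogenase, which feeds pyruvate to the mitochondrial cycle, rose by 0.86 in fl/fl cells and by 0.87 in +/fl cells. Its inhibitory kinase Pdk1 fell in fl/fl cells (−1.5, adjusted p = 5.66e-06) and in +/fl cells (−1.09, adjusted p = 4.92e-05).

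**Figure D2:**
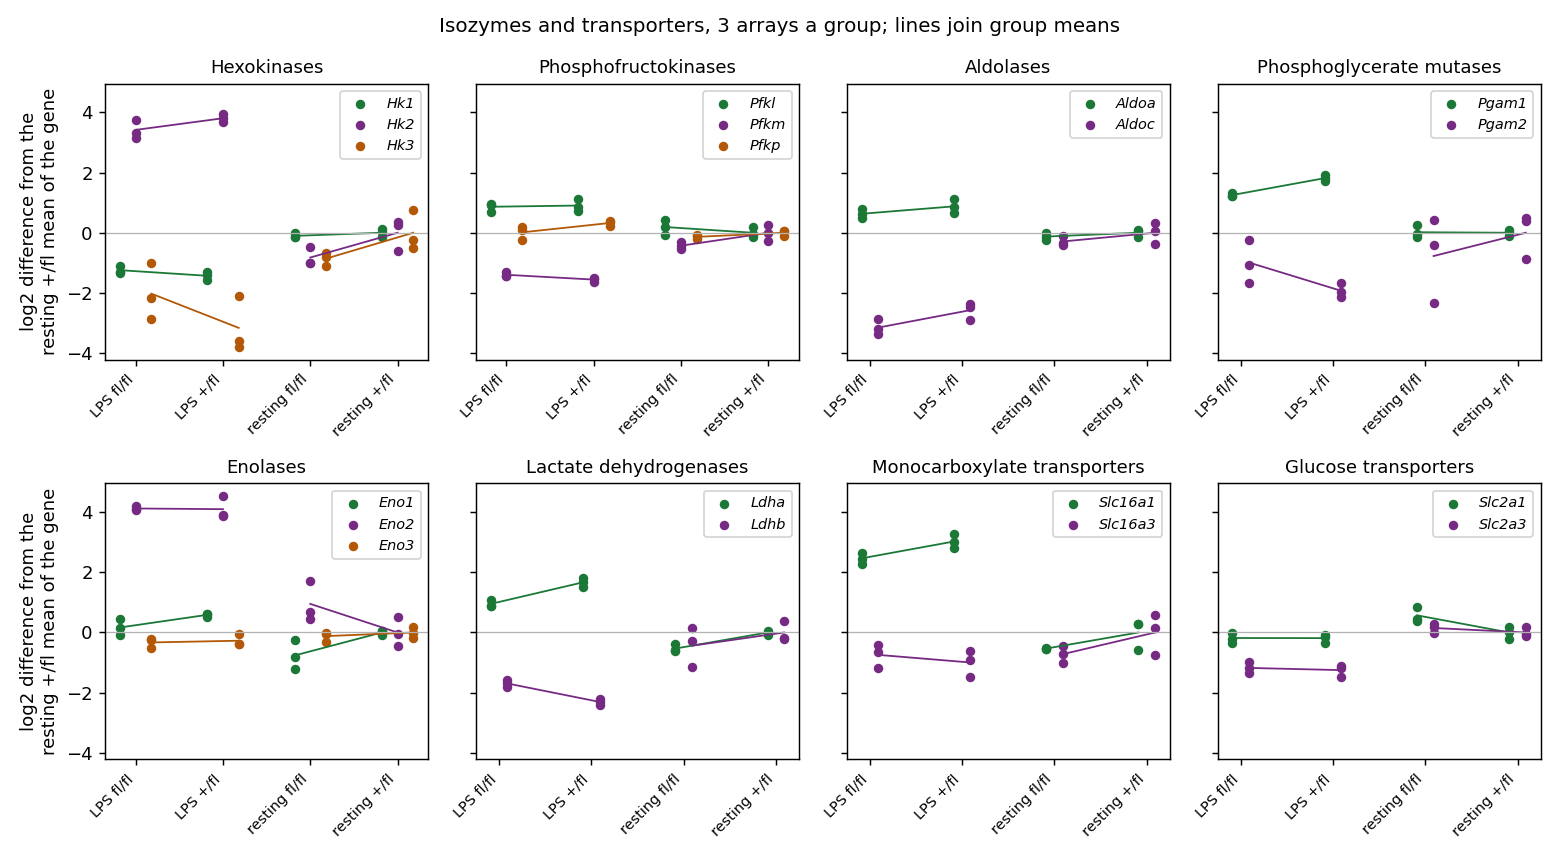
Genes that share a step or a transport function. The y axis is the log2 difference of each array from the gene's mean in resting +/fl cells, each point is 1 array, and lines join the group means of fl/fl and +/fl cells under the same treatment. After LPS, Hk2, Aldoa, Pfkl, Pgam1, Ldha and Slc16a1 lie above 0, and Hk1, Aldoc, Pfkm, Pgam2, Ldhb and Slc16a3 lie below 0, in both genotypes. For fl/fl cells the distance from 0 is not the LPS response. That response was −0.21 in Pgam2 and −0.02 in Slc16a3, and neither passed the test.

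Enzymes that tune the flux fell or did not pass. Pfkfb4, a kinase and phosphatase that sets fructose 2,6-bisphosphate, the activator of phosphofructokinase, read 1.70, 1.30 and 1.58 in LPS fl/fl cells, against 2.50, 2.64 and 2.30 in resting fl/fl cells. In +/fl cells Pfkfb4 read 1.23, 1.33 and 1.30 after LPS, against 2.78, 2.84 and 2.47 at rest. Pfkfb4 fell in fl/fl cells (−0.95 ± 0.14, adjusted p = 0.000284) and in +/fl cells (−1.41 ± 0.14, adjusted p = 1.72e-05), with no overlap. Bpgm, which makes 2,3-bisphosphoglycerate and is most abundant in red cells, fell in fl/fl cells (−0.84, adjusted p = 0.00834) and in +/fl cells (−1.12, adjusted p = 0.00147). A second Bpgm probe, above background on all 12 arrays, did not pass in fl/fl cells (−0.39, adjusted p = 0.105). It fell in +/fl cells (−1.29, adjusted p = 0.000209, adjusted over all probes). Of 9 erythroid markers 5 fell and 1 rose in +/fl cells, where 27.4% of all genes fell and 30.4% rose. In fl/fl cells 2 of these markers fell and 1 rose, where 25.7% of all genes fell and 29.9% rose. The part of erythroid cells in the Bpgm values was not tested. The summed erythroid level spanned 2.27 to 3.50 on LPS fl/fl arrays and 3.04 to 6.63 on resting fl/fl arrays. It spanned 2.93 to 5.08 on LPS +/fl arrays and 5.14 to 6.25 on resting +/fl arrays. The inducible form Pfkfb3 passed in neither genotype (−0.21 in fl/fl, −0.15 in +/fl). Its 2 dimmer probes, above background on all 12 arrays, were adjusted over all probes. One fell in +/fl cells (−0.79, adjusted p = 0.021) and did not pass in fl/fl cells (0.22, adjusted p = 0.479). The remaining Pfkfb3 probe passed in neither genotype (0.37 in fl/fl, −0.29 in +/fl).

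The pentose phosphate enzymes rose in both genotypes with 1 exception, 5 of the 6 measured in each. Tkt, the transketolase that links the pentoses back to glycolysis, read 6.64, 6.73 and 6.48 in LPS fl/fl cells, against 4.92, 4.83 and 4.94 in resting fl/fl cells. In +/fl cells Tkt read 6.86, 6.96 and 6.72 after LPS, against 5.35, 5.25 and 5.54 at rest. It rose 3.29-fold in fl/fl cells (1.72 ± 0.11, adjusted p = 9.84e-07) and 2.77-fold in +/fl cells (1.47 ± 0.11, adjusted p = 2.45e-06). In the oxidative branch, which makes NADPH, all 3 enzymes rose. G6pdx, the entry enzyme, rose in fl/fl cells by 0.57 (adjusted p = 0.00112) and in +/fl cells by 1.14 (adjusted p = 8.4e-06). Pgls, the lactonase, rose by 0.92 in fl/fl and 0.77 in +/fl cells. Pgd, the phosphogluconate dehydrogenase, rose by 1.19 in fl/fl and 1.24 in +/fl cells. The ribulose phosphate epimerase Rpe rose in fl/fl cells by 1.03 (adjusted p = 0.00722) and in +/fl cells by 0.73 (adjusted p = 0.0356). The +/fl call of Rpe was lost without resting +/fl array 2 or 3 or LPS +/fl array 1 or 3 (adjusted p up to 0.118). Taldo1, the transaldolase, was the exception (−0.04 in fl/fl, 0.00 in +/fl). Its 12 readings lay between 6.08 and 6.40.

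Rpia, the ribose phosphate isomerase, had no probe by name. A probe at chr6:70783702-70783748 on mm7, described as that isomerase under a transcript identifier, had a response of 0.51 in fl/fl cells (adjusted p = 0.0119) and 1.12 in +/fl cells (adjusted p = 8.01e-05). It lies outside the counts. A second Pgls probe also responded more than the one used (3.49 in fl/fl, 2.58 in +/fl); it lies elsewhere on chromosome 8 and may read another transcript. Its genotype difference was −1.91 at rest (adjusted p = 0.00311) and −1.01 after LPS (adjusted p = 0.0534), where the Pgls probe used gave −0.33 at rest and −0.19 after LPS.

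In resting cells, 4 members were lower in fl/fl than in +/fl cells, none was higher by the test, and 30 of 34 did not pass. The 4 were Tpi1, Pgk1, Ldha and Tkt. That is 11.8% called, against 8.81% of all genes in either direction and 4.18% in the lower direction; 4.63% of all genes were higher. The genes called split into 794 higher and 716 lower, but into 56 and 225 with median scaling. The median difference of the members was −0.26 and that of all genes 0.05, with 26 members below 0. At an unadjusted p under 0.05, 2 members were higher and 11 lower. Every resting fl/fl array was below every resting +/fl array for 11 members, as for 12.6% of all genes, and above it for 2, Slc2a1 and G6pdx, as for 18.7% of all genes.

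After LPS, 4 members were again lower in fl/fl cells and none higher by the test, 11.8% against 1.69% of all genes in either direction, 0.805% lower and 0.887% higher. The genes called split into 152 higher and 138 lower, but into 22 and 178 with median scaling, 53 and 81 with quantile normalization, and 168 and 242 with normexp background correction. They were Tpi1, Pgk1, Pgam1 and Ldha. The median was −0.20 and that of all genes 0.04. At an unadjusted p under 0.05, 0 members were higher and 11 lower. Every LPS fl/fl array was below every LPS +/fl array for 12 members, as for 18.1% of all genes, and above it for 3, Pfkm, Pgam2 and Ldhb, as for 15.3% of all genes. With quantile normalization the median after LPS was −0.06 and no member was called.

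Tpi1 read 3.99, 4.09 and 3.92 in LPS fl/fl cells, against 4.71, 4.83 and 4.77 in LPS +/fl cells. At rest it read 3.02, 3.20 and 3.38 in fl/fl cells, against 3.67, 3.59 and 3.67 in +/fl cells. All fl/fl arrays were below all +/fl arrays of the same treatment, and the gene was 1.70-fold lower after LPS (−0.76 ± 0.11, adjusted p = 0.0151) and 1.36-fold lower at rest (−0.44 ± 0.11, adjusted p = 0.0341). The LPS call was lost without LPS fl/fl array 1, LPS +/fl array 2 or LPS +/fl array 3 (adjusted p up to 0.0708). The resting call was lost without any 1 of 8 arrays, resting fl/fl 1 and 2, resting +/fl 1 and 3, LPS fl/fl 1 and all LPS +/fl arrays (adjusted p up to 0.103).

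Pgk1 read 5.33, 5.17 and 5.19 in LPS fl/fl cells, against 5.66, 5.77 and 5.69 in LPS +/fl cells. At rest it read 3.84, 3.76 and 3.97 in fl/fl cells, against 4.45, 4.26 and 4.45 in +/fl cells. The genotypes did not overlap under either treatment. The gene was 1.45-fold lower at rest (−0.53 ± 0.10, adjusted p = 0.015), which held without any single array (adjusted p up to 0.0491), and 1.40-fold lower after LPS (−0.48 ± 0.10, adjusted p = 0.0468). The LPS call held in 1 of 12 such fits, that without resting +/fl array 2, and the adjusted p reached 0.154. A second Pgk1 probe differed by −0.52 after LPS and by −0.53 at rest.

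Ldha read 5.93, 6.14 and 5.95 in LPS fl/fl cells, against 6.74, 6.87 and 6.56 in LPS +/fl cells. At rest it read 4.43, 4.46 and 4.68 in fl/fl cells, against 5.07, 4.98 and 5.12 in +/fl cells. Again no fl/fl array reached a +/fl array of the same treatment. Ldha was 1.65-fold lower after LPS (−0.72 ± 0.12, adjusted p = 0.0271) and 1.45-fold lower at rest (−0.53 ± 0.12, adjusted p = 0.0266). Left-out arrays ended the LPS call in 5 of 12 fits, those without LPS fl/fl 1 or 3 or any LPS +/fl array (adjusted p up to 0.0948), and the resting call in 4, those without resting fl/fl 1 or 2 or resting +/fl 1 or 3 (adjusted p up to 0.0902).
The second Ldha probe, shown as an independent reading of the same RNA, has 60 bases whose ends lie 930 bases apart in the genome, at chr7:43030257-43031186 on mm7.
Ldha probe: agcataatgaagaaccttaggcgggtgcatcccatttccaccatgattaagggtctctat
It differed by −0.75 after LPS (adjusted p = 0.0513) and by −0.70 at rest (adjusted p = 0.0262), adjusted over all probes tested.

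Pgam1 read 5.34, 5.43 and 5.36 in LPS fl/fl cells, against 5.93, 6.03 and 5.85 in LPS +/fl cells. At rest it read 4.37, 3.97 and 4.08 in fl/fl cells, against 4, 4.16 and 4.21 in +/fl cells. The genotypes were separate after LPS (1.48-fold lower, −0.56 ± 0.12, adjusted p = 0.0474) and overlapped at rest (0.02, adjusted p = 0.95). The LPS call held in 2 of 12 fits with an array left out, those without resting fl/fl array 1 or 2 (adjusted p up to 0.16 in the others), and the difference between the 2 genotype effects did not pass the test (−0.58, adjusted p = 0.123).

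Tkt, whose readings are given above, was 1.40-fold lower in resting fl/fl cells (−0.48 ± 0.11, adjusted p = 0.0326) with no overlap, and differed by −0.23 after LPS (adjusted p = 0.265). The resting call was lost without any 1 of 7 arrays, the 3 resting fl/fl arrays, resting +/fl 1 and 3, LPS fl/fl 1 and LPS +/fl 1 (adjusted p up to 0.0846). Averaged over its 3 probes the difference was 0.02 (adjusted p = 0.946). That mean includes a dim probe that was not well above background on any resting array, and the remaining probe had −0.78.

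**Figure D3:**
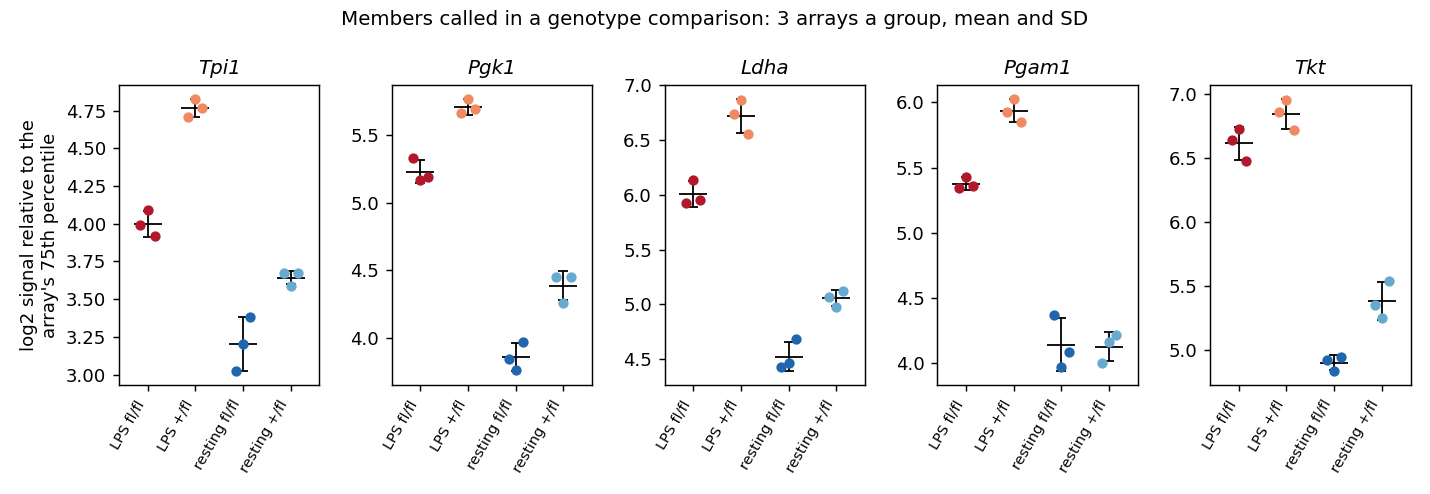
The 5 members called in a genotype comparison. The y axis is the log2 signal after the 75th percentile of each array was subtracted, with its own range in each panel; points are arrays, black marks the group mean and SD. In Tpi1, Pgk1 and Ldha the fl/fl points lie below the +/fl points under both treatments; in Pgam1 they do so after LPS and in Tkt at rest.

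Slides gave a partial check. Each of the 3 slides held 1 resting fl/fl and 1 resting +/fl array, and within each slide Tpi1 (−0.57, −0.47 and −0.29 on slides 1, 2 and 3), Pgk1 (−0.42, −0.69 and −0.48), Ldha (−0.56, −0.61 and −0.43) and Tkt (−0.33, −0.52 and −0.60) were lower in fl/fl cells. The member median within slides was −0.05, −0.45 and −0.16. After LPS only slide 2 held both genotypes, and there Tpi1 differed by −0.79, Pgk1 by −0.47, Ldha by −0.79 and Pgam1 by −0.57, with a member median of −0.22. With slide as a block, no member was called after LPS (Tpi1 −0.88, adjusted p = 0.0864; Ldha −0.84, adjusted p = 0.095). The sample names of resting +/fl array 3 and LPS +/fl array 1 share a number, and without this pair no member was called in either genotype comparison.

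Members short of the threshold gave these values. At rest, the closest was Pdha1 (−0.35, adjusted p = 0.051), then Slc2a1 (0.57, adjusted p = 0.0533), the member with the smallest adjusted p among those above 0. Eno1 (−0.76, adjusted p = 0.0565), Pfkm (−0.43, adjusted p = 0.0764), Hk2 (−0.82, adjusted p = 0.0843) and Pkm (−0.34, adjusted p = 0.0931) followed. After LPS the nearest were Pdha1 (−0.36, adjusted p = 0.0868), Pdk1 (−0.46, adjusted p = 0.10) and G6pdx (−0.37, adjusted p = 0.101). Resting differences of the uncalled members ran up to 0.95, in Eno2 (adjusted p = 0.11). Second probes, above background on all 12 arrays, passed for 2 of these genes when adjusted over all probes: Pdha1 at rest (−0.38, adjusted p = 0.0374) and Pdk1 after LPS (−0.59, adjusted p = 0.0484). A dimmer second probe of Eno2 also passed and was higher in resting fl/fl cells (1.34, adjusted p = 0.0391, adjusted over all probes). That probe was well above background on 2 of 3 resting fl/fl arrays and 0 of 3 resting +/fl arrays, so the size of its difference is uncertain.

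**Figure D4:**
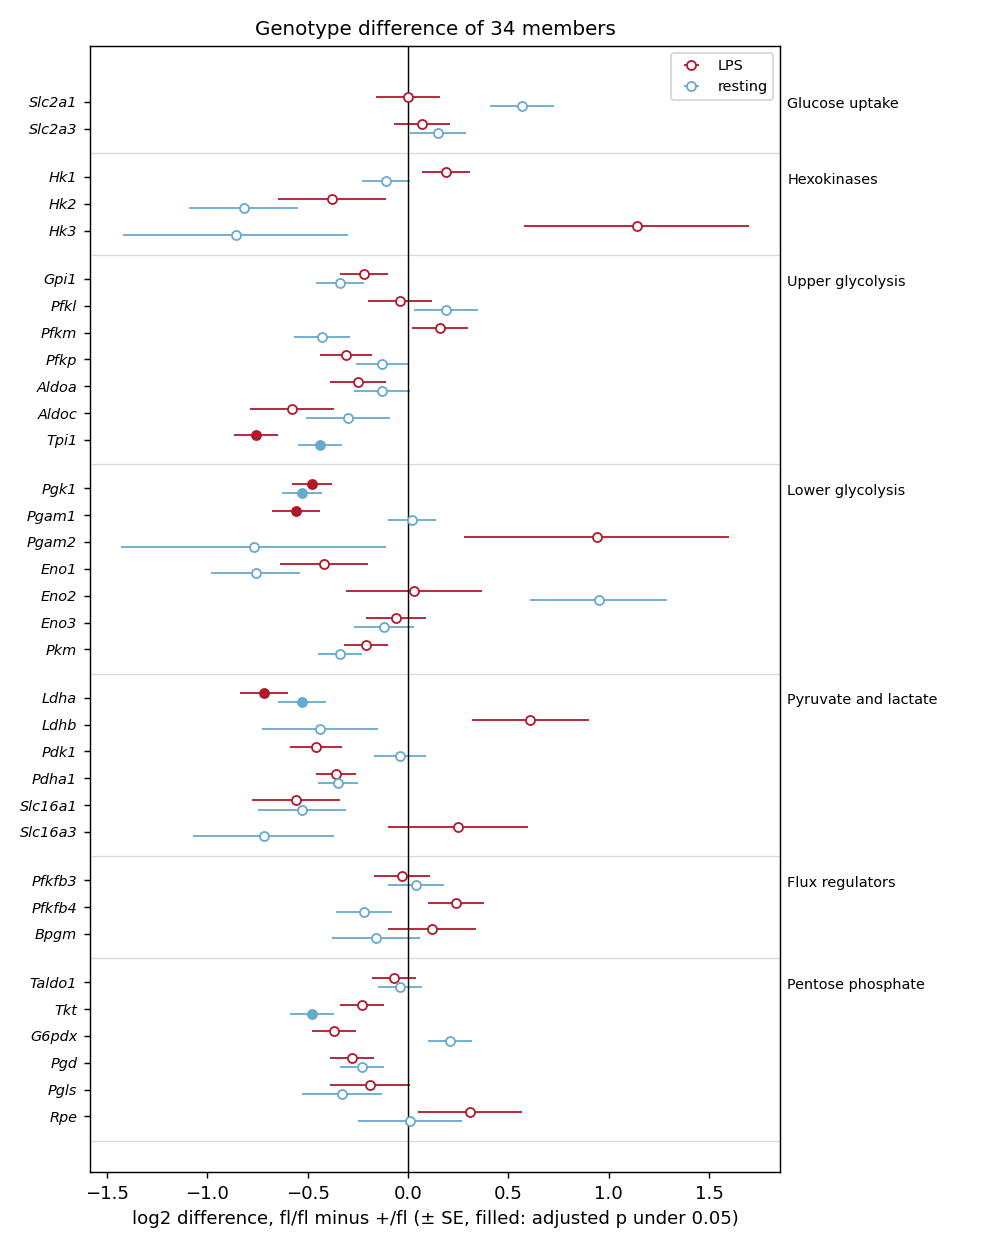
Genotype difference of the 34 members by role. The x axis is the log2 difference, fl/fl minus +/fl, with standard errors; red points are LPS-treated and blue points resting cells, and filled points passed the adjusted p of 0.05. Filled points are Tpi1, Pgk1 and Ldha under both treatments, Pgam1 after LPS and Tkt at rest, all left of 0.

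Arrays differed in ways that moved with the genotype results. Of 10 B cell markers 2 were lower and 0 higher in resting fl/fl cells (median −0.31). After LPS 1 was lower and 0 higher (median −0.32), and under each treatment 4 of the 10 had differences above 0. Of 21 cell cycle genes 10 were lower in resting fl/fl cells and none higher (median −1.84), and 3 were lower after LPS (median −0.78). Their summed level spanned 7.23 to 7.36 on LPS fl/fl arrays and 7.62 to 7.80 on LPS +/fl arrays. At rest it spanned 6.77 to 6.90 on fl/fl arrays and read 7.50, 7.10 and 7.57 on +/fl arrays 1, 2 and 3. The 17 myeloid markers had differences below 0 at rest, 1 of them past the test (median −1.21), and their summed level spanned 6.50 to 7.11 in resting fl/fl and 6.79 to 8.31 in resting +/fl cells. The 9 erythroid markers were also below 0 at rest, none past the test (median −1.57), with summed levels of 3.04 to 6.63 in fl/fl and 5.14 to 6.25 in +/fl cells. Platelet markers went the other way at rest, 8 of 8 above 0 and 2 past the test (median 1.06), with summed levels of 3.63 to 3.84 in fl/fl and 2 to 2.58 in +/fl cells. After LPS 7 of 7 NK cell markers (median 1.43, 1 past the test), 10 of 11 T cell markers (median 0.59, none past it) and 16 of 17 myeloid markers (median 0.75, none past it) were above 0. Platelet markers were above 0 in 7 of 8 cases (median 0.72). Erythroid markers were below 0 in 7 of 9 cases (median −0.62, none past the test), and plasma cell markers in 3 of 6 (median −0.18, 1 lower by the test). The summed plasma cell level was 4.24 to 5.01 on LPS fl/fl arrays and 5.24 to 5.77 on LPS +/fl arrays. At rest it was 3.99 to 4.66 in fl/fl and 5.49 to 6.22 in +/fl cells, and 1 plasma cell marker was lower by the test. Of 6 dendritic cell markers 1 was lower in fl/fl cells at rest and 1 higher after LPS. In resting cells 10 of 11 T cell markers (median −0.5) and 5 of 7 NK cell markers (median −0.81) were below 0, none past the test. The summed NK level was 1.42 to 2.32 on LPS fl/fl arrays and 0.21 to 0.81 on LPS +/fl arrays, and the T cell level 3.95 to 4.28 on LPS fl/fl arrays and 3.44 to 3.71 on LPS +/fl arrays. In the resting cell cycle, myeloid and erythroid levels the +/fl arrays 1 and 3 were above +/fl array 2. Hk2 (0.62, −0.37 and 0.50) and Slc16a1 (0.86, 0.01 and 0.88) were also higher on +/fl arrays 1 and 3. Without these 2 arrays no member was called at rest and the median was −0.15, a fit in which the lone +/fl array is assumed to vary like the other groups; Tpi1 then differed by −0.39, Pgk1 by −0.41, Ldha by −0.46 and Tkt by −0.35. Without +/fl array 2, 9 members were called, 1 higher and 8 lower, Hk2 (−1.13, adjusted p = 0.0185) and Slc16a1 (−0.82, adjusted p = 0.0182) among them. That fit called 1533 of the 17134 genes tested, 750 higher and 783 lower. The part of B cell, cell cycle, myeloid, erythroid, platelet, plasma cell, dendritic cell, NK or T cell RNA in the member differences was not tested.

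The LPS response of no member differed between the genotypes by the test, where 0.175% of all genes (30) did, 0.105% in the positive and 0.07% in the negative direction. At an unadjusted p under 0.05, limma gave 4 members above and 4 below 0. The median difference of the 34 responses was 0.02, with 17 above and 17 below 0. The smallest adjusted p were those of G6pdx (−0.58, 0.106), Pgam1 (−0.58, 0.123) and Pfkm (0.59, 0.149). G6pdx and Pfkm changed order between the treatments. G6pdx read 3.04, 2.92 and 3.06 in LPS fl/fl cells, against 3.22, 3.42 and 3.49 in LPS +/fl cells. At rest it read 2.57, 2.35 and 2.40 in fl/fl cells, against 2.17, 2.31 and 2.22 in +/fl cells. The fl/fl arrays of G6pdx were thus below the +/fl arrays after LPS and above them at rest, and those of Pfkm the reverse, with neither genotype difference past the test. Hk3 had the largest difference of responses in size (2 ± 0.79, adjusted p = 0.206).

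Neighbouring carbohydrate enzymes, 49 tested of 59 listed, gave a background within metabolism. After LPS 23 rose and 11 fell in fl/fl cells, or 69.4% called, where 76.5% of members and 55.6% of all genes were. In +/fl cells 23 rose and 14 fell, or 75.5%, where 85.3% of members and 57.7% of all genes were called. Those with the smallest p mostly fell: ketohexokinase Khk (−1.82 in fl/fl, −2.47 in +/fl), sorbitol dehydrogenase Sord (−2.85 in fl/fl, −3.48 in +/fl) and H6pd, the reticulum counterpart of G6pdx (−2.05 in fl/fl, −2.18 in +/fl). Gpd1l, a glycerol phosphate dehydrogenase (−2.53 in fl/fl, −1.5 in +/fl), and the transporter Slc2a8 (−1.48 in fl/fl, −2.62 in +/fl) fell in both genotypes too. In resting cells 3 were higher in fl/fl, among them Gpd1l (0.92, adjusted p = 0.011) and Pfkfb2 (0.70, adjusted p = 0.0162), the relative of Pfkfb3 and Pfkfb4. A further 3 were lower, among them Pck2, the mitochondrial phosphoenolpyruvate carboxykinase (−0.96, adjusted p = 0.00266), and ribokinase Rbks (−0.66, adjusted p = 0.0105). That is 12.2% called at rest, against 11.8% of members and 8.81% of all genes. After LPS 1 differed, Slc2a8, higher in fl/fl (1.06, adjusted p = 0.0151), or 2.04% called, against 11.8% of members and 1.69% of all genes. Khk (0.49, adjusted p = 0.0562), Galk1 (−0.63, adjusted p = 0.0599) and Pck2 (−0.44, adjusted p = 0.0708) did not pass.

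Among 35 regulators of the pathway tested, 1 differed by genotype in resting cells (2.86%, where 8.81% of all genes did). Differences of 24 of the 35 were above 0 (median 0.19, that of all genes 0.05), and at an unadjusted p under 0.05 limma gave 8 higher and 2 lower. The called gene was Myc, which activates many glycolytic genes and was lower. Myc read 2.72, 2.22 and 2.22 in resting fl/fl cells, against 3.11, 3.28 and 3.42 in resting +/fl cells (−0.89 ± 0.17, adjusted p = 0.0156). After LPS it read 5.51, 5.94 and 5.78 in fl/fl cells, against 6.11, 6.21 and 6.01 in +/fl cells, and this difference did not pass (−0.37, adjusted p = 0.239), although the arrays did not overlap. No regulator passed in that comparison by limma, and 3 had an unadjusted p under 0.05, 1 above and 2 below 0. LPS raised Myc by 3.36 in fl/fl and 2.84 in +/fl cells. Txnip, an inhibitor of glucose uptake, fell by 1.91 in fl/fl and 1.77 in +/fl cells. Usf1, which binds the E-box (−2.05 in fl/fl, −1.86 in +/fl), and its relative Usf2 (−1.02 in fl/fl, −1.24 in +/fl) fell in both genotypes. Rptor, a subunit of the mTORC1 kinase complex, rose by 0.90 in fl/fl and 0.87 in +/fl cells. Ppargc1a, a coactivator of mitochondrial genes, fell in both genotypes, to signals well above background on 2 of 3 LPS fl/fl arrays and 1 of 3 LPS +/fl arrays, so no fold is given. Over the list 4 rose and 11 fell in fl/fl cells (42.9% called, against 55.6% of all genes), and 8 rose and 10 fell in +/fl cells (51.4%, against 57.7%).

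Hypoxia-responsive genes outside glycolysis, 19 tested of 20, moved both ways. After LPS 8 rose and 6 fell in fl/fl cells (73.7% called, against 55.6% of all genes), and 9 rose and 6 fell in +/fl cells (78.9%, against 57.7%). The cytokine Mif rose by 2.56 in fl/fl and 2.40 in +/fl cells. The oxidoreductase Ero1a rose by 1.53 in fl/fl and 1.99 in +/fl cells. Fam162a rose by 2.12 in fl/fl and 2.36 in +/fl cells. Ankrd37 fell by 2.60 in fl/fl and 2.02 in +/fl cells. By genotype, Ero1a was lower in LPS fl/fl cells (−0.55, adjusted p = 0.0435). Adm, the peptide adrenomedullin, was higher in resting fl/fl cells (1.32, adjusted p = 0.0374). Car12 passed the test at rest too but was not well above background on any resting array, so no fold is given.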

How the data were processed

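RNA of sorted splenic B cells was labelled with Cy3 and hybridised to 12 one-colour Agilent arrays, 3 in each of 4 groups taken from the labels. The authors deposited spot intensities from Agilent Feature Extraction, version 9.5.3.1 per the file headers and 9.1 per the submitters' processing notes. The processed signal, a background-corrected intensity per the file headers, was averaged over spots of a probe and expressed as log2 minus the array's 75th percentile. A deposited value table, linear intensities whose column medians were all 30.8 and whose normalization is not stated, served as an alternative.

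Control spots were left out, as were 87 probes with outlier flags on all their spots of an array. A probe was kept if at least 3 of 12 arrays had it well above background (25678 probes). Probes were named by RefSeq accession or symbol, and the brightest stood for each of 17134 genes. limma 3.58.1 in R 4.3.3 fitted the 4 groups together (8 residual and 1.79 prior degrees of freedom), and contrasts gave each genotype difference (fl/fl minus +/fl), each LPS response (LPS minus resting) and their interaction. p-values were adjusted by Benjamini-Hochberg over all genes, with a threshold of 0.05. The 36 members, the lists and the tests were chosen with earlier results of these data known. Values in every array are given for members called by genotype and for the largest LPS response in each role; of the other lists, up to 4 genes with the smallest p per comparison are named, and further genes (Gapdh-like and Rpia-like probes, Ebf1, G6pdx by array) were chosen after their values were seen. The number of arrays limits the precision. Promoters came from RefSeq on GRCm38.p6, and probe positions are those of the files, on mm7. Background correction, scaling, the filter, the deposited table, slide and replicate blocks, the probe rule and left-out arrays were tried as alternatives.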

Additional observations from a re-analysis of the deposited data

How the results depend on the processing

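Over 24 alternatives, no member called in an LPS response changed sign, and Hk2, Eno2, Slc16a1, Aldoc, Ldha, Ldhb, Pgam1, Pgk1, Pkm, Tkt, Pgd, Pfkm and Pfkfb4 kept both calls in all 24. The genotype calls held less often: at rest Pgk1 kept its call in 19, Ldha in 14, Tpi1 in 10 and Tkt in 9, and after LPS Tpi1 in 13, Ldha in 12, Pgam1 in 4 and Pgk1 in 4. Of these only Tkt changed sign (0.02 with the mean over probes). For the genotype difference at rest, genes called numbered 281 with median scaling (56 higher, 225 lower, against 794 and 716 with the 75th percentile), 421 with no filter, 134 with only the 6 arrays compared, 276 without the pair sharing a sample number and 86 without resting +/fl arrays 1 and 3. Members called were 0 in each of these 5, and 7 when a probe had to be above background on all arrays. The member median moved to −0.38 with the mean over probes and −0.15 without resting +/fl arrays 1 and 3. For the genotype difference after LPS, genes called numbered 134 with quantile normalization (53 higher, 81 lower, against 152 and 138), 136 with the deposited table (54 and 82), 200 with median scaling (22 and 178), 410 with normexp (168 and 242), 27 with no filter, 531 with probes above background on all arrays, 5 with slide as a block, 32 with only the 6 arrays and 14 without the pair. Members called were 1 with the deposited table, 2 without resting +/fl arrays 1 and 3, and 0 with quantile normalization, median scaling, no filter, slide as a block, only 6 arrays or without the pair. The member median moved to −0.06 with quantile normalization, the deposited table or the mean over probes, and to −0.72 with median scaling, where that of all genes was −0.49.

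For the LPS response of +/fl cells the member median was 0.26 with quantile normalization, 0.73 with median scaling, 0.59 with probes above background on all arrays and 0.27 with the deposited table. For that of fl/fl cells it was 0.08 with median scaling, where 5990 genes were called (2279 higher, 3711 lower, against 5116 and 4408) the members called were 9 higher and 10 lower and the median of all genes was −0.22, and 0.57 with probes above background on all arrays. With normexp the genes called split into 4364 higher and 6863 lower in fl/fl cells and 4823 and 6643 in +/fl cells (5201 and 4689 with the 75th percentile, 4347 and 2581 with median scaling), and the members called at rest into 1 and 5. For the interaction, genes called numbered 100 with normexp (41 and 59, against 18 and 12), 10 with median scaling, 8 with no filter, 238 with probes above background on all arrays, 7 with slide as a block, 7 with the mean over probes and 3 without the pair. Its member median was 0.16 with quantile normalization, 0.17 with the deposited table, 0.21 with the mean over probes and −0.53 with median scaling, which turned its sign while the median of all genes was −0.54. No interaction of a member was called in any alternative run. Apart from fits with fewer arrays or other sets of probes, the cause was not tested.

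The replicate numbers did not pair the samples (correlations of same-numbered deviations −0.08 to 0.13). With a replicate block, 725 genes and 1 member were called at rest, 42 genes and 0 members after LPS, and 9 genes in the interaction. Leaving out each array in turn gave 504 to 1664 genes, 1 to 9 members and a member median of −0.31 to −0.16 at rest, and 16 to 292 genes and 0 to 3 members after LPS. The median LPS response of fl/fl members ran over 0.34 to 0.47, and interaction calls over 8 to 140 genes. LPS fl/fl array 2 had a median signal of 93, against 19 to 35.9 elsewhere, which limits dim probes such as Hk3.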
